A study of Mus musculus with 12 samples.

Results

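CC9dunni and CC9mus are mouse embryonic stem (ES) cell lines, described by their authors as having the same chromosomes and different mitochondrial DNA (mtDNA). Their DNA methylation at CpG islands was compared here. The comparison used the 3 arrays titled CC9dunni and the 3 titled CC9mus, which were 6 of the 12 arrays of the series. The other 6, from CC9spretus and CC9pahari, entered the estimate of the spread between arrays and are otherwise given only for reference. Both lines derive from CC9.3.1, an ES cell strain from a 129SvEv-Gpi1c(129S6) embryo, and were made by fusing enucleated cytoplasts to CC9.3.1 cells depleted of their mitochondria. The CC9dunni cytoplasts came from Mus dunni, given as Mus terricolor in the sample labels, and those of CC9mus from Mus musculus. CC9mus thus went through the same fusion step as CC9dunni and served as the reference. The cells were grown on mitomycin C-treated embryonic fibroblasts and kept for 48 h without feeders before use, and no other treatment was given. Each mtDNA was represented by 1 line, so the effect of the mtDNA and of the line cannot be told apart. Nothing in the labels said that the replicates came from separate cultures, and the p-values below measure only the spread between these arrays. Neither the mtDNA of a line nor the purity of its cells could be checked, as the probe positions covered the nuclear chromosomes and carried no gene names.

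In mammals, DNA methylation is mostly the addition of a methyl group to cytosines that precede guanines. CpG islands are short stretches rich in this dinucleotide, many of them at promoters. Most are free of methylation in ES cells, and methylated islands are found at imprinted genes, germline genes and the inactive X chromosome. DNMT1 copies the mark when DNA is replicated, DNMT3A and DNMT3B place it anew, and TET enzymes oxidise it. The TET enzymes need α-ketoglutarate, a product of the mitochondrial tricarboxylic acid cycle.

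Methylated fragments were collected with an antibody to 5-methylcytosine (the IP fraction), labelled with Cy5 and hybridised with Cy3-labelled input DNA. The value of a probe was log2 of IP over input, centred on the median of its array. A log2 ratio of 2 is a 4-fold enrichment over the median probe. The ratio is a relative enrichment and not a percentage of methylated molecules, since it also follows the CpG density of the fragments. There were 88737 probes, 45 to 60 bp long, of which 88093 had a value on all 6 arrays. The 88321 probes with a position on an assembled chromosome of build mm9 fell into 14580 loci, and neighbouring probes were put into the same locus where no more than 1000 bp lay between them. The median locus had 5 probes and was 652 bp wide. Positions are given on mm9, and no gene is named because no annotation of that build was used here.

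The replicate arrays of the lines were not equally spread, and the number of calls depended on this. The standard deviation of the log2 ratios was 1.25, 1.24 and 1.1 on CC9dunni replicates 1, 2 and 3, and 0.53, 1.85 and 2.01 on CC9mus replicates 1, 2 and 3. CC9mus replicate 1 was thus the narrowest of the 6 arrays and CC9mus replicates 2 and 3 the widest, with CC9dunni between them. The mean standard deviation was 1.19 ± 0.08 (SD, n = 3) for CC9dunni and 1.47 ± 0.81 for CC9mus, a difference that did not pass the threshold (p = 0.50, two-sided exact permutation test, in which 3 arrays against 3 cannot go below 0.10). Across probes, the log2 ratios of CC9dunni replicates 1 and 2 correlated at r = 0.93, and either with replicate 3 at 0.80 or 0.81. The pairs within CC9mus gave 0.67 to 0.81 and the pairs between the lines 0.62 to 0.70. CC9dunni replicates 1 and 2 shared 1 slide and belonged to the earlier of the scan periods, whereas CC9dunni replicate 3 and all CC9mus arrays were scanned in the later period. CC9mus replicates 1 and 2 also shared 1 slide, and CC9mus replicate 3 was on another. All CC9mus arrays were scanned on 1 day that held no other line, so CC9mus and that day cannot be told apart. On the CC9dunni arrays 80.0% to 95.9% of probes had an IP signal well above background, and on the CC9mus arrays 75.2% to 98.6%.

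**Figure D1:**
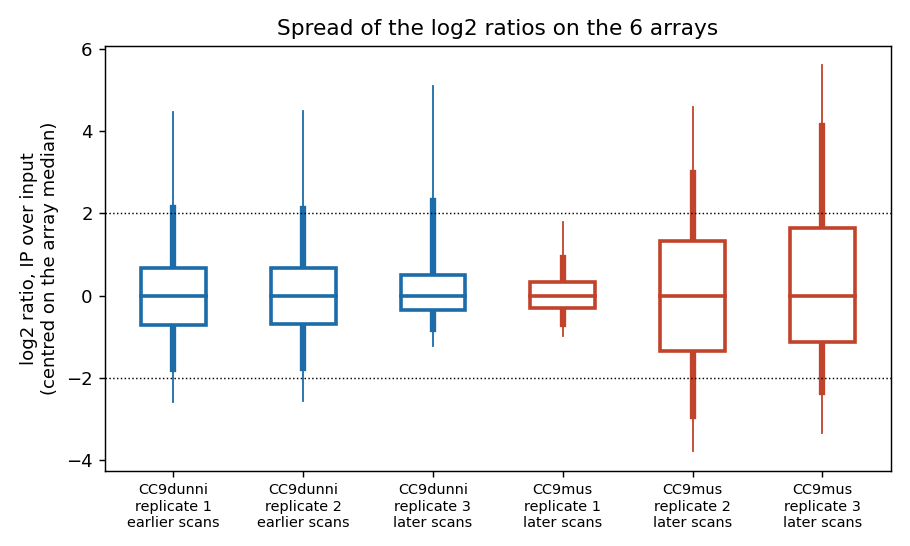
Log2 ratio of IP over input on each of the 6 arrays, with boxes for the middle 50% of probes, thick lines for the 5th to 95th percentile and thin lines for the 1st to 99th. CC9mus replicate 1 has a standard deviation of 0.53 against 1.85 and 2.01 on CC9mus replicates 2 and 3, and the dotted lines mark log2 ratios of 2 and -2.

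In the centred ratios, most probes with a mean above 2 in CC9dunni also had one in CC9mus, but this share depended on the setting. The mean log2 ratio was above 2 for 4723 probes in 1560 loci in CC9dunni and for 8330 probes in 3343 loci in CC9mus. The 3823 probes above 2 in both lines made up 80.9% of the CC9dunni probes and 45.9% of the CC9mus probes. The arrays were also rescaled (equal spread below), each divided by its median absolute deviation and multiplied by the mean of these deviations over the series. This matched the middle of the arrays and not their tails. Relative to that deviation, the standard deviation was larger on every CC9dunni array than on any CC9mus array. A rescaled value of 2 is also not a 4-fold enrichment, and the part of the tails in the counts at equal spread was not tested. At equal spread, 2777 of the 6789 CC9dunni probes were shared, and in the centred ratios without CC9mus replicate 3 it was 2373 of 4723. A further 900 probes were above 2 in CC9dunni only and 4507 in CC9mus only. Below -2, the lines had little in common, with 520 probes in CC9dunni, 2882 in CC9mus and 71 in both. No probe was above 2 in one line and below -2 in the other, but 13 were below -2 in CC9dunni and above 2 in CC9mus without CC9dunni replicate 3, 4 without CC9mus replicate 1 and 1 without CC9mus replicate 3, which also gave 1 in the other direction.

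The calls past the threshold depended on single arrays. In the 4507 probes called above 2 in CC9mus only, the median log2 ratio was 0.98, 0.94 and 1.02 on the CC9dunni arrays and 0.74, 2.61 and 3.80 on CC9mus replicates 1, 2 and 3. CC9mus replicate 1 therefore lay below the CC9dunni arrays at the median probe of this group. The lines did not overlap at 24.2% of its probes. Over all probes, 9.91% did not overlap with CC9dunni higher and 9.97% with CC9mus higher. In the 900 probes above 2 in CC9dunni only, the median was 2.53, 2.59 and 2.69 on the CC9dunni arrays and 0.21, 1.71 and 2.81 on the CC9mus arrays. Of these, 24.1% did not overlap, beside the same shares of 9.91% and 9.97% over all probes. The number of probes above 2 in CC9mus was 15664 without CC9mus replicate 1 and 3797 without replicate 3. With every array required to be past the threshold, CC9dunni kept 3603 probes and CC9mus 611, with 533 shared, so the order of the lines turned. It also turned at equal spread, where the tails of the arrays were not matched, with 6789 probes above 2 in CC9dunni and 3318 in CC9mus. The probes below -2 in CC9dunni numbered 222, 220 and 2431 without replicates 1, 2 and 3, and those in CC9mus 9621 without replicate 1 and 691 without replicate 2.

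Tested across all probes, no single probe passed in the comparison of CC9dunni with CC9mus. limma gave 0 of 88737 probes with a Benjamini-Hochberg adjusted p under 0.05, a share of 0%, and the lowest adjusted p was 0.0751. At an unadjusted p under 0.05 there were 20788 of the 88737 probes, 10500 higher and 10288 lower in CC9dunni. In limma, an unadjusted p as high as 0.000802 (A_68_P28183234) had an adjusted p of 0.0972, so the count of 0 lay near the threshold. It does not show that the lines were alike. The median absolute difference between the line means was 0.59, beside a median standard error of 0.46 and a median absolute difference of 0.16 between CC9dunni replicates 1 and 2 and of 1.1 between CC9mus replicates 1 and 2. The count changed with the weight given to the arrays. At equal spread, 8128 probes passed, 4512 of them higher in CC9dunni (5.08% of the probes) and 3616 higher in CC9mus (4.07%). With weights estimated for each array, 9155 passed, and CC9mus replicate 1 received the lowest weight of the 12 arrays, 0.12. Without CC9mus replicate 1 the unscaled values gave 30168 calls, 15125 higher and 15043 lower in CC9dunni, against 5 without CC9mus replicate 2, 54 without CC9mus replicate 3 and 0 without any one CC9dunni array.

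Slide, scan day and scan period were also entered in the fit, although a block for the day cannot separate CC9mus from the day on which it alone was scanned. With the slide or the scan day as a random block, limma called 0 probes, with 17937 and 22304 at an unadjusted p under 0.05. With the period as a block, 0 probes passed and 14878 had an unadjusted p under 0.05. In the later period alone, CC9dunni, CC9spretus and CC9pahari had 1 array each, so that the spread came only from the 3 CC9mus arrays, with 2 residual degrees of freedom, and was assumed for CC9dunni. limma called 0 probes there, with 555 at an unadjusted p under 0.05, and this small fit says little about whether the lines differ. At equal spread with the period as a block, 17281 probes passed, and 74.2% of them were higher in CC9dunni, compared with 55.5% without the block.

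Averaging over the probes of a locus gave 1 locus of 14580 that differed in limma, 0.00686% of those tested. It lay at chr11:84771163-84771858 and had 6 probes, all higher on every CC9dunni array than on any CC9mus array. Its mean log2 ratio was 1.66, 1.82 and 1.98 on the CC9dunni arrays and -0.02, -0.09 and -0.47 on the CC9mus arrays. CC9dunni was thus enriched about 4-fold over CC9mus, and the replicates of each line lay close together. The difference was 2.01 ± 0.22 (SE, limma adjusted p = 0.0347), and 2.28 with the scan period as a block (adjusted p = 0.00862). With the replicate number as a block, the locus did not pass (limma adjusted p = 0.0755) and 0 loci were called. The call was lost without CC9mus replicate 2 or any one CC9dunni array (adjusted p from 0.191 to 0.294) while the difference stayed between 1.93 and 2.09. The 6 arrays of CC9spretus and CC9pahari ranged from 0.53 to 1.84 here, above all CC9mus arrays. At equal spread, 1733 loci passed, 964 higher in CC9dunni (6.61%) and 769 higher in CC9mus (5.27%), and without CC9mus replicate 1 the unscaled values gave 6403.

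A count that does not depend on the estimate of the spread is that of probes whose 3 arrays of one line all lay beyond the 3 of the other. All CC9dunni arrays were higher at 8726 probes (9.91%) and all CC9mus arrays at 8783 (9.97%). Centring each array on its median bears on this balance, and without centring there were 8046 and 9103. In the centred ratios, CC9mus was higher by more than 2 at 1887 of these probes and CC9dunni at 665. The order turned at equal spread, where the tails of the arrays were not matched, with 1020 and 2646. At equal spread the counts were 16349 (18.6%) and 12900 (14.6%), and 87.5% of the 8726 and 84.5% of the 8783 were among them. With normexp background correction they were 4602 and 8105, and those included 21.0% and 32.4% of the probes found in the centred ratios. The shared probes made up 46.7% and 57.6% of the lists at equal spread, and 39.8% and 35.2% of those after normexp.

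How the directions split by level of enrichment depended on the scaling, and among the most enriched probes the order held but its size did not. Of the 4528 probes with a mean above 2 over the 12 arrays, 8.22% were higher on all CC9dunni arrays and 0.663% on all CC9mus arrays. Between 0 and 1 the order was the other way, with 10.3% and 15.9%, and between -1 and 0 it was 14.5% and 10.2%. In the class above 2, the median log2 ratio was 3.22, 3.24 and 3.49 on the CC9dunni arrays and 1.05, 3.26 and 4.47 on CC9mus replicates 1, 2 and 3. Of the CC9mus arrays, replicate 1 alone lay below all CC9dunni arrays in that class. At equal spread the orders of the 2 middle classes turned, with 18% against 14.9% between 0 and 1 and 15.6% against 16.7% between -1 and 0. Between 1 and 2 the shares were 1.69% and 4.58% in the centred ratios and 21.3% and 5.2% at equal spread, and below -1 they were 2.96% and 2.54%, and 7.79% and 22.7%. In the class above 2 the order held, as 60.9% of the probes were higher on all CC9dunni arrays and 0.410% on all CC9mus arrays at equal spread. The rescaled medians of that class were 3.20, 3.31 and 6.01 on the CC9dunni arrays and 2.33, 1.71 and 2.40 on the CC9mus arrays. All CC9dunni medians were thus above all CC9mus medians after rescaling, which matched only the middle of the arrays. CC9dunni replicate 3, which has a narrow middle and a long upper tail, stood apart from its replicates there.

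**Figure D2:**
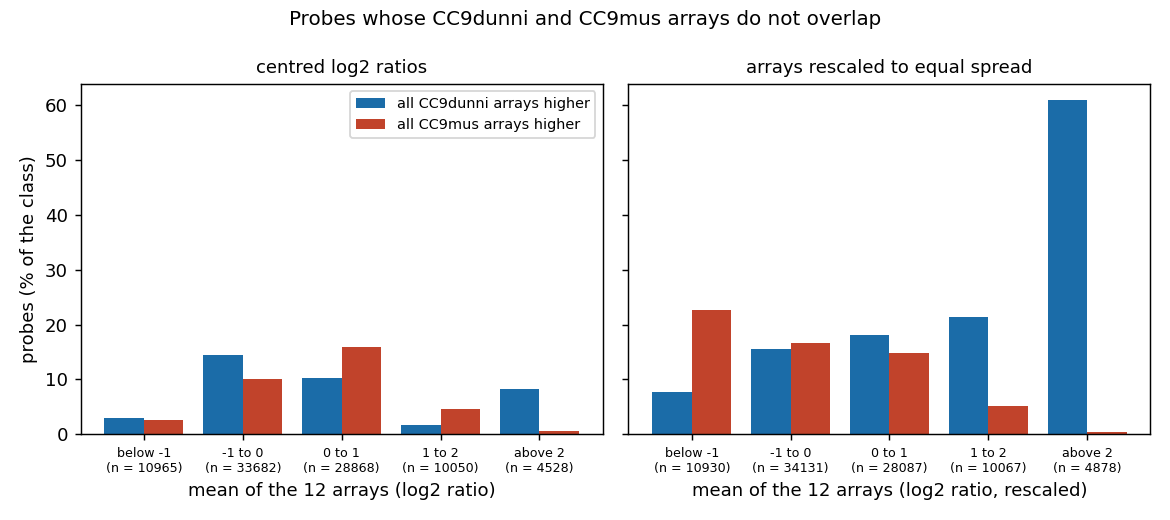
Share of probes (%) at which all CC9dunni arrays (blue) or all CC9mus arrays (red) were higher, by the mean log2 ratio of the 12 arrays, for centred ratios (left) and arrays rescaled to equal spread (right). Above 2, 8.22% of probes were higher in CC9dunni on the left and 60.9% on the right, against 0.663% and 0.410% higher in CC9mus.

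Probes were then named by the width of the gap between the lines, meaning the lowest array of the higher line minus the highest array of the lower one. They had to be bright in the input on all 6 arrays and in the IP on all arrays of the higher line. Of the placed probes that did not overlap, 7965 of 8697 higher in CC9dunni and 7343 of 8759 higher in CC9mus met this, and the 10 with the widest gap in different loci were taken in each direction. As they were chosen by their values, what follows is a description. The gap of the 10th and 11th probe was 2.03 and 2.01 for CC9dunni, and 1.58 and 1.57 for CC9mus.

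Among probes higher in CC9dunni, the widest gap was at A_68_P31786967 (chr18:66618600-66618646). Its log2 ratio was 4.02, 4.16 and 3.64 on CC9dunni replicates 1, 2 and 3, and -0.58, -0.84 and 0.44 on the CC9mus arrays. This is an island fragment among the most enriched in CC9dunni and near the array median in CC9mus, and the CC9dunni array of the later scan period matched those of the earlier one. The difference was 4.27 ± 0.53 (SE, limma adjusted p = 0.0866, and 0.00970 at equal spread). It was 2.49 after normexp background correction (limma adjusted p = 0.141), and blocking on the scan period gave an adjusted p of 0.179. The CC9spretus and CC9pahari arrays lay from 0.05 to 2.22, below every CC9dunni array, and 4 of the 6 lay above every CC9mus array. In its locus, 5 of 6 probes separated the lines in this direction.

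A_68_P29681788 (chr14:67486601-67486645) behaved alike. It gave 2.84, 2.94 and 2.60 in CC9dunni and -1.32, -3.16 and -0.55 in CC9mus, a difference of 4.47 ± 0.56 (SE), or 22.2-fold. The arrays of the other lines, from -0.24 to 1.08, all lay between the CC9mus and the CC9dunni arrays. In its locus, 4 of the 12 probes were higher on all CC9dunni arrays, all on one side of the middle, whereas 1 probe on the other side was higher on all CC9mus arrays and the remaining 7 overlapped.

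Other probes higher in CC9dunni were low in CC9mus alone. A_68_P25361260 (chr7:106497298-106497342) had log2 ratios of 3.54, 3.47 and 3.56 in CC9dunni and -0.19, 0.75 and 0.20 in CC9mus, while the other lines had 2.31 to 3.59. Its adjusted p of 0.0751 was the lowest of the 88737 probes in limma, with a difference of 3.27 ± 0.35 (SE), which was 1.40 after normexp background correction. All 5 probes of its locus separated the lines. A_68_P20620972 (chr1:134257371-134257415) had 5.64, 5.66 and 5.46 in CC9dunni against 0.72, 2.56 and 2.81 in CC9mus. A_68_P27536901 (chr10:127030734-127030787) had 5.09, 5.38 and 5.61 against 0.58, 2.64 and 2.41. At both of these the CC9mus arrays were themselves above their median, and the line difference lay between enriched and more enriched DNA. The other lines reached 5.54 and 5.88 at these probes, within or above the range of CC9dunni.

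The remaining 5 probes of this direction had smaller gaps. A_68_P24153012 (chr5:143194708-143194755) had 2.81, 2.90 and 3.55 in CC9dunni and -0.50, 0.42 and 0.39 in CC9mus. A_68_P28743035 (chr12:112509516-112509560) had 2.06, 2.06 and 2.39 against -0.93, -1.64 and -0.17, and 8 of the 10 probes of its locus separated the lines. A_68_P28107297 (chr11:107340918-107340962) had 1.64, 1.60 and 3.00 against -0.54, -2.57 and -1.15. At this last probe the CC9spretus and CC9pahari arrays, from -0.94 to -0.25, lay below every CC9dunni array, and 4 of the 6 lay above every CC9mus array. A_68_P28291023 (chr12:25365989-25366033) had 0.66, 0.52 and 0.65 against -1.60, -2.83 and -2.09. A_68_P29233347 (chr13:94944386-94944430) had 1.5, 1.58 and 3.07 against -0.69, -1.20 and -0.53, the later CC9dunni array being the highest. Over the 10 probes, limma's adjusted p was 0.0751 to 0.0972, 0.00970 to 0.0325 at equal spread and 0.105 to 0.274 with the scan period as a block.

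Among probes higher in CC9mus, A_68_P28733168 (chr12:110766379-110766427) had the widest gap. It gave 1.32, 0.84 and -0.37 in CC9dunni and 3.89, 7.73 and 7.34 in CC9mus. The difference of -5.73 ± 0.85 (SE, limma adjusted p = 0.0972, and 0.0250 at equal spread) was 53.0-fold. After normexp background correction it was -3.75 (limma adjusted p = 0.166). All 4 probes of its locus separated the lines. The other lines ranged from -0.31 to 3.43, below all CC9mus arrays. A_68_P27643656 (chr11:22872152-22872201) was also high in CC9mus, at 2.25, 5.68 and 6.0, against -0.53, 0.49 and -0.54 in CC9dunni.

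At the other 8 probes of this direction CC9dunni was below its array median, and the IP signal of CC9dunni was well above background on 1 array at 7 of them and on none at the remaining one. A_68_P29648023 (chr14:61665196-61665244) had -1.66, -1.71 and -1.36 in CC9dunni and 0.78, 2.14 and 3.17 in CC9mus. A_68_P27594331 (chr11:11938103-11938162) had -1.63, -2.58 and -0.95 against 0.91, 4.02 and 2.63. A_68_P24334775 (chr6:30908248-30908292) had -1.20, -1.31 and -0.96 against 0.87, 2.68 and 4.35. In all of these CC9mus replicate 1 was the lowest of its line. A_68_P31038595 (chr17:10528555-10528606) had -1.89, -1.72 and -0.71 against 1.06, 3.64 and 2.38. A_68_P28183234 (chr11:120096728-120096787), in a locus of 40 probes, had -1.53, -2.61 and -0.72 against 0.89, 3.20 and 1.31. A_68_P31343018 (chr17:73268993-73269049) had -2.50, -2.45 and -1.19 against 0.39, 2.42 and 1.28. A pair of probes reached these gaps with a CC9mus level close to the array median. A_68_P27311150 (chr10:85391079-85391130) had -1.30, -2.76 and -1.33 against 0.51, 1.1 and 0.95. A_68_P20770395 (chr1:163100689-163100748) had -2.83, -2.18 and -1.88 against 0.14, 0.85 and 0.46. The IP signal was not well above background on any CC9dunni array, and with the centred ratios CC9mus was at least 2.97-fold higher there. After normexp background correction the difference was only -0.41 (limma adjusted p = 0.528), which is smaller than that bound.

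The named probes separated CC9mus from the whole series more often than they separated CC9dunni from it. At 7 of the 10 probes higher in CC9dunni and 9 of the 10 higher in CC9mus, all 6 arrays of CC9spretus and CC9pahari lay on the CC9dunni side of every CC9mus array. Over all probes that did not overlap, this held for 33.8% of the 8726 and 37.8% of the 8783. CC9dunni minus the mean of CC9spretus and CC9pahari was 0.15 to 2.96 at the former 10 and between -1.22 and -0.18 at the latter. In that contrast limma called 0 of 88737 probes, with 1453 at an unadjusted p under 0.05, and the adjusted p of the 20 named probes was 0.970 or higher. Unadjusted, limma's p there was under 0.05 at 6 of the 10 probes higher in CC9dunni, the lowest 3.28e-05, and at 1 of the 10 higher in CC9mus. This contrast and the comparison with CC9mus share the CC9dunni arrays. After normexp background correction the difference was more than 1.5 times smaller at 4 of the 10 probes higher in CC9dunni, which then ranged from 1.40 to 3.93, and at all 10 higher in CC9mus, from -3.75 to -0.41.

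Neighbouring probes moved together at some loci. Runs of consecutive probes of a locus that all separated the lines in one direction had 3 or more members in 310 cases for CC9dunni and 496 for CC9mus, holding 12% and 20.9% of the probes that did not overlap. At equal spread the order turned, with 1243 such runs for CC9dunni and 778 for CC9mus, holding 28.5% and 22.7%, and the longest had 19 probes towards CC9dunni and 11 towards CC9mus. In the centred ratios, the longest had 14 of the 15 probes of a locus, at chr14:68741625-68743210, and the remaining probe lacked a value on 1 array. Its mean log2 ratio was 0.52, 0.50 and 0.30 on the CC9dunni arrays and 1.15, 3.29 and 5.50 on the CC9mus arrays. The CC9mus arrays were all higher but differed among themselves by more than CC9mus replicate 1 differed from CC9dunni, and the other lines, from 0.56 to 1.84, overlapped CC9mus replicate 1. Runs of 11 probes lay at chr1:89050547-89052375 and chr9:62992108-62993540. The first of these had -0.54, -0.44 and -0.27 in CC9dunni and 0.34, 1.90 and 3.43 in CC9mus, with all 6 arrays of the other lines below CC9mus, from -0.52 to -0.16.

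Towards CC9dunni, the longest runs in the centred ratios had 8 probes. One filled the locus at chr3:88340114-88341033, with means of 0.71, 0.78 and 0.38 in CC9dunni and -0.29, -1.24 and -1.55 in CC9mus. The other, at chr4:129985225-129986222, had 0.74, 0.81 and 1.06 against -0.49, -1.51 and -0.77. At the first, all 6 arrays of the other lines lay between those of CC9mus and CC9dunni, from -0.17 to 0.16. At the second they ranged from -0.51 to 0.24, the lowest of them just below CC9mus replicate 1. Of the 13463 loci with at least 3 probes, every probe was higher in CC9dunni at 22 and in CC9mus at 49, and 1288 held probes of both directions.

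**Figure D3:**
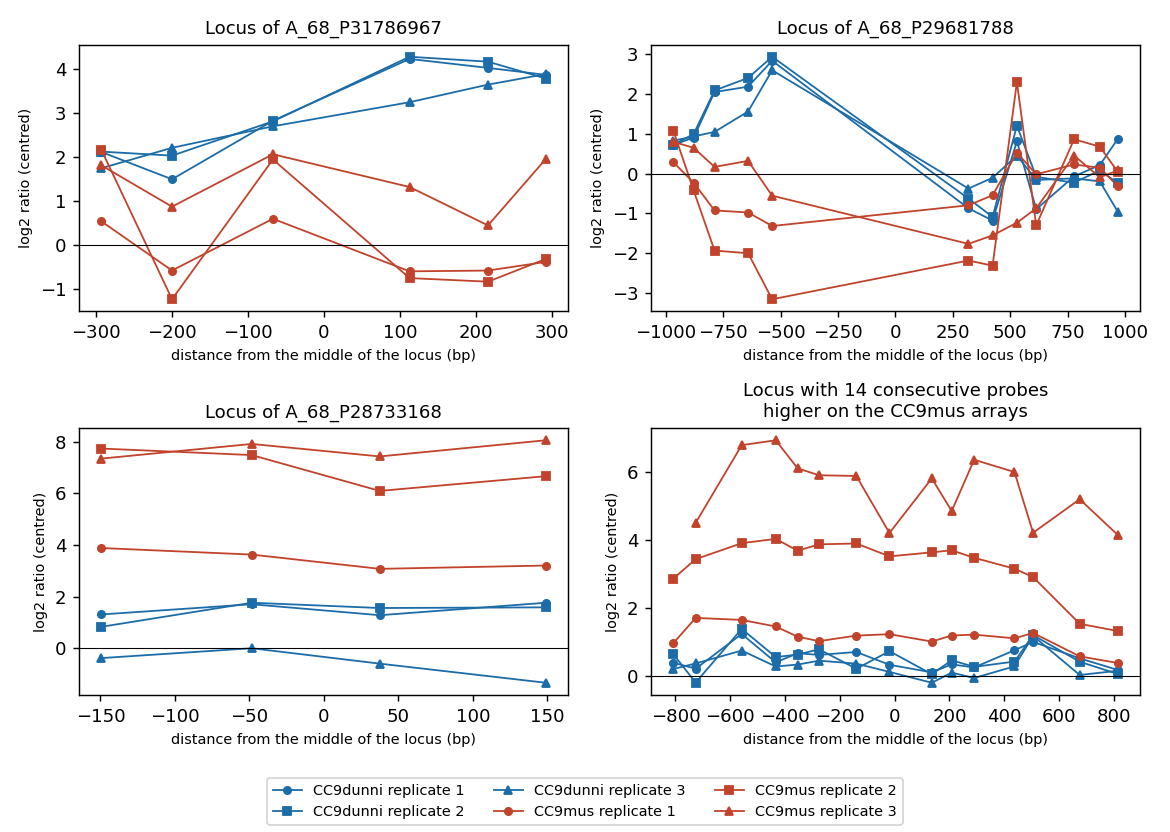
Log2 ratio of each probe against its distance (bp) from the middle of its locus, for the 6 arrays at 4 loci. CC9dunni lies above CC9mus at 5 of 6 probes of the locus of A_68_P31786967 and at 4 of 12 probes, on one side of the middle, of that of A_68_P29681788. CC9mus lies above CC9dunni at all 4 probes of the locus of A_68_P28733168 and at 14 of 15 probes of the last locus, where the CC9mus arrays are far apart from each other.

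By limma's p over loci with at least 3 probes, several of those that ranked after the chromosome 11 locus had smaller differences. The locus at chr6:72908069-72908913 had means of 0.93, 0.68 and 0.61 in CC9dunni and -0.24, -0.72 and -0.48 in CC9mus, and that at chr8:47085210-47085778 had 0.53, 0.49 and 0.45 against -0.34, -0.62 and -0.76. Both differed by more than the spread of either line, with limma adjusted p = 0.117 and, at equal spread, 0.00406 and 0.00638. Towards CC9mus, the locus at chr9:107611611-107612347 had -0.35, -0.35 and -0.36 in CC9dunni and 0.54, 0.89 and 0.41 in CC9mus. The locus at chr1:23928525-23929508 had -0.87, -0.82 and -0.83 against 0.16, 0.07 and -0.20. The adjusted p of both was 0.117 in limma, and 0.0213 and 0.0131 at equal spread. The locus at chr7:133848227-133848565 had -0.63, -0.70 and -0.43 in CC9dunni and 0.37, 1.85 and 1.79 in CC9mus, and all 3 of its probes separated the lines. The remaining 4 of the 10 named loci were those of A_68_P25361260 and A_68_P31038595, the chromosome 4 locus with the run of 8 probes, and chr4:100964637-100966014, with -0.68, -0.57 and -0.30 in CC9dunni and 0.26, 1.04 and 1.60 in CC9mus.

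By chromosome, the median difference between the lines ranged from -0.04 on chromosome 1 to 0.10 on chromosome 6. It was 0.05 on X and 0.29 there at equal spread, and on chromosome 1 it was between -0.12 and 0.00 when single arrays were left out. On chromosome 6 it was then between 0.01 and 0.14, the lowest without CC9mus replicate 2. On that chromosome, where 11.8% of probes were higher in CC9dunni and 9.25% in CC9mus, the input signal differed too. Relative to the mean of the 12 arrays, the median log2 input on chromosome 6 was -0.10, -0.10 and -0.14 on the CC9dunni arrays and 0.28, 0.30 and 0.33 on the CC9mus arrays. No other chromosome had an input difference near this one, the remaining autosomes and X lying between -0.12 and 0.06. The part of the input in the ratios of chromosome 6, which include the locus at chr6:72908069-72908913 and A_68_P24334775, was not tested. Nor was it tested whether both lines hold the same amount of this chromosome. On chromosome 8 the input was below the mean of the 12 arrays in both lines, at -0.10, -0.11 and -0.16 in CC9dunni and -0.19, -0.19 and -0.15 in CC9mus.

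The X chromosome had the most uneven split. Of its probes, 14% were higher on all CC9dunni arrays and 6.06% on all CC9mus arrays, while the autosomes had 8.55% to 11.8% and 8.48% to 11.6%. At equal spread the X had 25.3% and 7.97%, and the autosomes 15.8% to 21.2% and 12.5% to 17.1%. Between -1 and 0, 22.4% of X probes were higher in CC9dunni and 7.04% in CC9mus, where the autosomes had 14.3% and 10.3%, in the same direction. Between 0 and 1 the X had 14.8% and 7.74% and the autosomes 10.2% and 16.2%, and above 2 the X had 2.94% and 1.47% and the autosomes 8.58% and 0.655%. Between 1 and 2 the order on X was the other way, with 1.22% and 2.68%, beside 1.71% and 4.68% on the autosomes. Below -1 the X had 4.69% and 3.1% and the autosomes 2.94% and 2.53%. The median log2 ratio of X probes was 0.38, 0.34 and 0.23 on the CC9dunni arrays and 0.01, 0.42 and 0.29 on the CC9mus arrays, so the lines overlapped and CC9mus replicate 1 was the lowest. Without that array the median difference on X was -0.08. The input signal of X was 0.06 and 0.11 on CC9dunni replicates 1 and 2 and -0.22 on replicate 3, beside -0.10, -0.10 and -0.03 in CC9mus, and its part in the ratios was not tested.

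**Figure D4:**
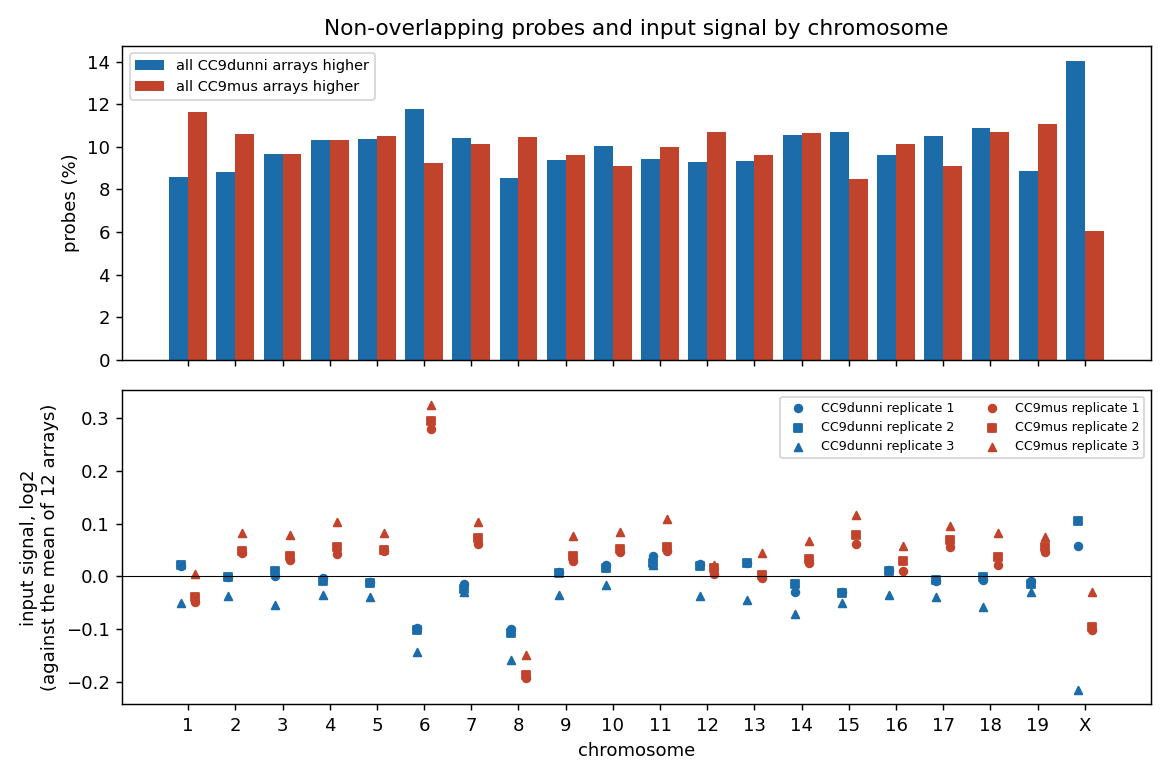
Share of probes (%) at which all CC9dunni or all CC9mus arrays were higher, by chromosome (top), and the median log2 input signal of each array relative to the mean of the 12 arrays (bottom). The X has 14% against 6.06%, and the CC9mus inputs on chromosome 6 lie at 0.28 to 0.33 against -0.14 to -0.10 in CC9dunni.

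The share of separated probes by the size of a locus also depended on the scaling. In the centred ratios, loci of 16 or more probes had 10.0% of probes higher on all CC9dunni arrays and 12.9% on all CC9mus arrays, compared with 10.0% and 9.36% in loci of 4 to 6 probes and 6.5% and 8.19% in loci of 1 probe. At equal spread the shares were 17% and 16.3%, 19.7% and 14.2%, and 24.6% and 9.89%. Loci wider than 1200 bp had 9.42% and 11.7%, and those up to 300 bp had 9.50% and 7.65%, beside 15.8% and 15.9%, and 25.8% and 11.2%, at equal spread. In loci of at least 3 probes, the first and last probes were higher in CC9dunni at 8.79% and in CC9mus at 9.96%, and the inner probes at 10.5% and 10.0%. At equal spread these were 16.7% and 17.1%, and 19.2% and 13.7%.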

How the data were processed

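For each of the 12 arrays, 3 of each of 4 lines, the authors scanned IP (Cy5, 120 to 250 ng by the labels) and input (Cy3, 400 ng) on Agilent mouse CpG island arrays and extracted the signals with Feature Extraction 11.0.1.1, without dye swaps. The deposited intensities of both channels were background-subtracted and dye-normalised, and the deposited log10 ratio is that of IP over input for each probe. Neither was centred or averaged over replicates. The probe positions were those of mm9, per the file headers. Control spots (5950 per array) were left out, spots marked as outliers were missing, and log2(IP/input) was centred on the array median.

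Lines were compared with limma 3.58.1 in R 4.3.3, with 4 line means over the 12 arrays and 8 residual degrees of freedom. Calls needed an adjusted p under 0.05 by Benjamini-Hochberg, over the whole table of probes or of loci. The fit was checked on simulated data with independent noise of equal size on all arrays. This check does not cover arrays of unequal spread. The groups came from the sample titles. Missing spots were dropped from a fit and not imputed. Shares and ranges used Python 3.11.15. Array number, 3 per line, limits the precision. Named probes had non-overlapping lines, bright input on the 6 arrays and bright IP in the higher line, and were ranked by gap, 10 in each direction with 1 per locus. Named loci were the 5 in each direction with the lowest p among those with at least 3 probes whose arrays did not overlap. The runs of probes and the threshold groups were described after their values were seen. The members, lists and tests were chosen with earlier results of these data known. "At least" folds set the dim line at the lowest IP signal called well above background on each array.

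The alternatives were uncentred ratios, the deposited ratios, normexp (offset 50), equal spread, array weights, 6 arrays, dim probes left out, each array left out, a difference of at least 1, and blocks for replicate number, slide, scan day and scan period. Gene lists were not used, because no gene annotation of mm9 was used here.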

Additional observations from a re-analysis of the deposited data

How the results depend on the processing

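The direction at the 20 named probes did not turn, which their choice by the gap between the lines largely fixes. The cause of the changes below was not tested. The 0 probes called became 1 without centring and 1 with dim probes left out in both channels (A_68_P25361260 each time), 8128 at equal spread, 9155 with array weights and 17281 at equal spread with the scan period. Leaving out 1 array gave 0 to 30168, the highest without CC9mus replicate 1. Chosen after seeing the data, equal spread gave 6099 in the later scan period, 13613 with the replicate block and, leaving out CC9mus replicates 1, 2 and 3 in turn, 3392, 4062 and 5171, and CC9dunni replicates 1, 2 and 3, 3051, 2108 and 5086. The deposited ratios, normexp, the 6 arrays alone, bright input, slide, scan day and scan period each left 0 calls, and a further minimum difference of 1 can only give 0 from 0. The later period alone also gave 0, in a fit with 1 CC9dunni array and 2 residual degrees of freedom that says nothing about stability.

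Same-numbered arrays of CC9dunni and CC9mus showed little shared deviation (r = -0.14, 0.12 and -0.03 for replicates 1, 2 and 3). Not every array correlated best with its own number. Deviations from a mean of 3 arrays are tied to each other, so these values cannot exclude a shared effect of the replicate number. In CC9dunni, CC9spretus and CC9pahari, replicates 1 and 2 were scanned in the earlier period and replicate 3 in the later, so the number partly follows the scan period. The replicate block gave 1046 probes and 0 loci, and the adjusted p of the chromosome 11 locus was 0.0755 under it.

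The 1 locus called became 1733 at equal spread, 2 with the scan period and 3081 with both (the last chosen after seeing the data), and 0 to 6403 with single arrays left out, the highest without CC9mus replicate 1. Probes higher on all CC9dunni arrays numbered 16349 at equal spread and 4602 with normexp. Counts past the threshold, at equal spread and with every array past it, were 3318 and 611 above 2 in CC9mus, 1541 and 2 below -2 in CC9dunni, 266 and 0 below -2 in CC9mus and 14 and 0 below -2 in both lines, with 533 above 2 in both lines when every array was required. With single arrays left out they ranged from 3797 to 15664 above 2 in CC9mus, 2373 to 4460 above 2 in both, 220 to 2431 below -2 in CC9dunni, 691 to 9621 below -2 in CC9mus and 11 to 362 below -2 in both. The median difference ranged from -0.12 to 0.0019 on chromosome 1, and on X it was 0.29 at equal spread.

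In arrays the signal over background limits what can be seen. At 8 of the 10 probes named as higher in CC9mus, the IP signal of CC9dunni was well above background on at most 1 array. The size of those differences is uncertain, and their direction was set by the choice of the probes.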
